A study of Mus musculus with 2 samples.

Results

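The 42 genes described here act in G2 phase and mitosis, and were measured by single-cell RNA-seq of the mouse retina at postnatal day 7. They were chosen by symbol, with no cut on their measured values but with earlier results of these data known. All 42 were found among the 30892 nuclear genes that both count tables list. The series compared 1 library from control mice, labelled Ctrl, with 1 library from Mettl3-conditional knockout mice, here Mettl3-CKO. The Mettl3 protein is the enzyme that adds the m6A mark to mRNA. Each library pooled 2 retinas from 2 pups, all of the same litter, dissociated with papain and run on the 10x Genomics Chromium 3′ platform. The knockout joined floxed Mettl3 alleles to Six3-Cre, which drives Cre in retinal progenitor cells and for which loss of Mettl3 was described in the central retina, whereas whole retinas were sequenced, and the alleles of the Ctrl pups are given no further than that label. Since a group is 1 library, no test between genotypes was possible, and every interval printed is a 95% interval of counting error only, which holds neither the difference between pups nor that between library preparations.

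A dividing cell copies its DNA in S phase, assembles its mitotic machinery in G2 and then separates its chromosomes. Most genes of this machinery are transcribed in a wave that starts in late S phase and peaks at mitosis, and many of their proteins are destroyed as the cell divides. In the mouse retina progenitor cells are the dividing population, and by the end of the first postnatal week few of them remain, whereas rods, cones and bipolar cells are postmitotic.

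The Ctrl library held 3994 complete cells with 20955138 UMIs (median 4520.5 UMIs per cell) and the Mettl3-CKO library 3109 complete cells with 19957693 UMIs (median 5207). The tables as read end before their last barcode, so a further 2001 and 3883 cells were not analysed here, every share is of the cells read, and 5 cell barcodes occurred in both libraries. Mettl3 itself was at 39.5 CPM (UMIs per 1000000 UMIs of nuclear genes) in Ctrl and 33.1 CPM in Mettl3-CKO, a ratio of 0.837 (0.754 to 0.928), and in cycling cells at 29.2 and 20.6 CPM (0.706, 0.463 to 1.08). A 3′ count of this kind need not fall where a floxed exon is removed, so it is a weak check of the labels. Of the Ctrl cells 30 had a UMI of the X-inactivation RNA Xist, against 2534 with a UMI of a Y-linked gene, whereas the Mettl3-CKO library held 1531 cells with Xist and no Y-linked UMI and 725 with a Y-linked UMI and no Xist. The pups of the groups thus differed in sex. The cycling share and the list's ratios over all cells, in cycling cells and in postmitotic classes are also described for both kinds of Mettl3-CKO cell. Level ratios in other classes, among them Müller-like cells, and in cycling subclusters were not divided in this way.

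Promoters of mitotic genes are known for a pair of short elements, the CCAAT box and the cell cycle genes homology region, whose letters are TTTGAA. RefSeq start sites (GRCm38.p6) were matched for 36 of the 42 members, and windows from 250 bases before to 50 bases after the start were read for these letters on both strands. The last T of CCAAT may also be the first of TTTGAA, so that matches can share 1 base. TTTGAA was in the window of 26 members (72.2%), against 20.2% of the 27025 genes with a window, and CCAAT was in that of 29 members (80.6%), against 41.1%. Both occurred in 23 members (63.9%), against 7.97% of all genes. Of the further G2/M genes used for comparison, 28 of 44 held TTTGAA, and of the S-phase genes 6 of 30. A match is a description of letters and not a site of binding. Shown here are the 250 bases before the start, 5′ to 3′ on the gene's strand, with CCAAT and TTTGAA, or their reverse complements, in capitals. They show the cyclins of mitosis and their kinase, the most abundant topoisomerase and ubiquitin enzyme of the list, and the members with a high (Mki67) and a low (Nusap1) ratio between libraries.
Ccnb1, chr13:100786487-100786736, minus strand: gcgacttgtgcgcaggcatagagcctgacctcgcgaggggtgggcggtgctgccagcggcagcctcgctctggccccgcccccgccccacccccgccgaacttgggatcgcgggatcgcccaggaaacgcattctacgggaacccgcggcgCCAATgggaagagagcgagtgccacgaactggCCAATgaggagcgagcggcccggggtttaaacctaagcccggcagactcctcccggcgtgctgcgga
Ccnb2, chr9:70421555-70421804, minus strand: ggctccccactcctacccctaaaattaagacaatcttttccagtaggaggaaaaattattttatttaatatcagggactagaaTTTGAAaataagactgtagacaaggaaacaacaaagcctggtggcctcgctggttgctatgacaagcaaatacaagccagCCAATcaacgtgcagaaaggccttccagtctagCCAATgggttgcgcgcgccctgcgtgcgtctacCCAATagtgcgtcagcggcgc
Cdk1, chr10:69352913-69353162, minus strand: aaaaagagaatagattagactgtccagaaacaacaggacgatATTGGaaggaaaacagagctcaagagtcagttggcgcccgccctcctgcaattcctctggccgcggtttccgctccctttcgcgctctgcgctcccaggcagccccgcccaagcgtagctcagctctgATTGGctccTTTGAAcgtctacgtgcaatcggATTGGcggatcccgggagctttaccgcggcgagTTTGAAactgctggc
Top2a, chr11:99024190-99024439, minus strand: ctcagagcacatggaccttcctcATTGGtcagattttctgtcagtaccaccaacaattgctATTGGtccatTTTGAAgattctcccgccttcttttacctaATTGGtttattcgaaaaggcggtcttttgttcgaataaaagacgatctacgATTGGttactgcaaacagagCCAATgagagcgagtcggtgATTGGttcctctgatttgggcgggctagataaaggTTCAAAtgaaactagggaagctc
Ube2c, chr2:164769679-164769928, plus strand: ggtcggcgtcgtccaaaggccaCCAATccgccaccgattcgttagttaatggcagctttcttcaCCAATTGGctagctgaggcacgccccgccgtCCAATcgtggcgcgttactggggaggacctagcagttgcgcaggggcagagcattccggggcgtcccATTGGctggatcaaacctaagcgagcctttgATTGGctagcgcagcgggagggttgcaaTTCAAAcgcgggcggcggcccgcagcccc
Mki67, chr7:135716380-135716629, minus strand: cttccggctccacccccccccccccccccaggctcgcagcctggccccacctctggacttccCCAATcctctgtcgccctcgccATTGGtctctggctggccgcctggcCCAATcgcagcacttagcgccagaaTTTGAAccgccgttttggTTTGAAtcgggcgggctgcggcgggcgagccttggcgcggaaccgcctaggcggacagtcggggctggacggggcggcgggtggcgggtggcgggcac
Nusap1, chr2:119618048-119618297, plus strand: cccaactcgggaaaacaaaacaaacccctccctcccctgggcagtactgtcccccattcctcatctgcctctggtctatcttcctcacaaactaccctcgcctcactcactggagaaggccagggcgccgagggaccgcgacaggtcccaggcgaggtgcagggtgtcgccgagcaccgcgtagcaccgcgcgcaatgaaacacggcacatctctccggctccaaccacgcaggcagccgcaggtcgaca

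In these windows Top2a and Ube2c each had 6 CCAAT matches over both strands, and Mki67 carried TTTGAA at 116 and 98 bases before its start. The Ube2c matches at 186 and 183 bases before its start overlap in the stretch CCAATTGG, 1 on each strand. The Nusap1 window held neither motif and the Ccnb1 window held CCAAT alone, yet both genes were expressed with the rest of the list. The members with TTTGAA had a median log2 ratio between libraries in cycling cells of -0.09 (26 genes) and those without it of -0.17 (10 genes), with ranges that overlapped from -0.45 to 0.15.

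Cells were clustered with the 42 members left out, so that neither the clusters nor the number of cycling cells rests on the genes described. Clusters were named "-like" from marker genes that include none of the members. The cycling cells had 172 members in Ctrl, 4.31% of its cells read (3.70 to 4.98), and 274 in Mettl3-CKO, 8.81% (7.84 to 9.87), a ratio of 2.05 (1.70 to 2.46). Of 9 progenitor markers such as Sfrp2 and Fgf15, 8 in Ctrl and 9 in Mettl3-CKO were at least 1.5-fold higher in these cells than in the rest of their library. Of 13 Müller markers, many of which progenitor cells also express, 6 and 10 were 1.5-fold higher (5508 and 4528 CPM in sum, against 3654 and 2934 CPM elsewhere). Summed endothelial and pericyte markers were at 447 and 408 CPM, against 213 and 169 CPM elsewhere, with 1 and 2 of 7 markers 1.5-fold higher. Summed rod markers were at 265 and 407 CPM, against 8479 and 7831 CPM, and summed microglia markers at 17.6 and 21.8 CPM, against 415 and 522 CPM. The part of these markers in the members' levels was not tested. In Mettl3-CKO the cycling share was 6.99% among cells with Xist and no Y-linked UMI and 9.24% among cells with a Y-linked UMI and no Xist, so that both kinds lay above the Ctrl share.

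The cycling cells were divided further, again without the members, into an S-like subcluster, a subcluster led by replication-dependent histone genes such as Hist1h1a, and a G2/M-like subcluster. The 42 members summed to 2053 CPM in S-like, 14356 CPM in histone-led and 27689 CPM in G2/M-like cells of Ctrl, and to 2448, 14516 and 26051 CPM in Mettl3-CKO. All 42 were lowest in the S-like cells in both libraries. After each cell was thinned to 1000 UMIs, the median number of members detected per cell went from 2 in S-like over 10 in histone-led to 17 in G2/M-like cells in Ctrl, and from 2 over 10 to 16 in Mettl3-CKO.

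Members differed widely in where along this axis they stood. Of 14 genes known to rise in late S phase or G2 (the early group, with Top2a, Ccna2, Cdk1 and Smc4), the median member was 1.41 times higher in G2/M-like than in histone-led cells in Ctrl and 1.30 times in Mettl3-CKO. Of 18 genes known to peak at entry into mitosis or within it (the late group, with Ccnb1, Plk1, Cenpa and Cdc20) it was 3.05 and 2.53 times higher. The groups overlapped. In Ctrl early members ran from 0.831 to 1.86 and late members from 1.35 to 5.54, and in Mettl3-CKO from 0.687 to 2.01 and from 0.743 to 4.75. The late genes Bub1 (1.35 and 0.743), Birc5 (1.36 and 1.43) and Prc1 (1.49 and 1.41) were below the early gene Mki67 (1.86 and 2.01). Cdc20, the activator of the anaphase-promoting complex, stood furthest to the late side, with 183 CPM in histone-led and 1014 CPM in G2/M-like cells in Ctrl and with 182 and 866 CPM in Mettl3-CKO. Ndc80, which links kinetochores to microtubules, stood at the other end, at 177 and 147 CPM in Ctrl and at 147 and 101 CPM in Mettl3-CKO. The order of the 42 members by this quotient was much alike in the libraries (Spearman's rho across genes 0.94, n = 42 genes, which are not replicates).

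**Figure D1:**
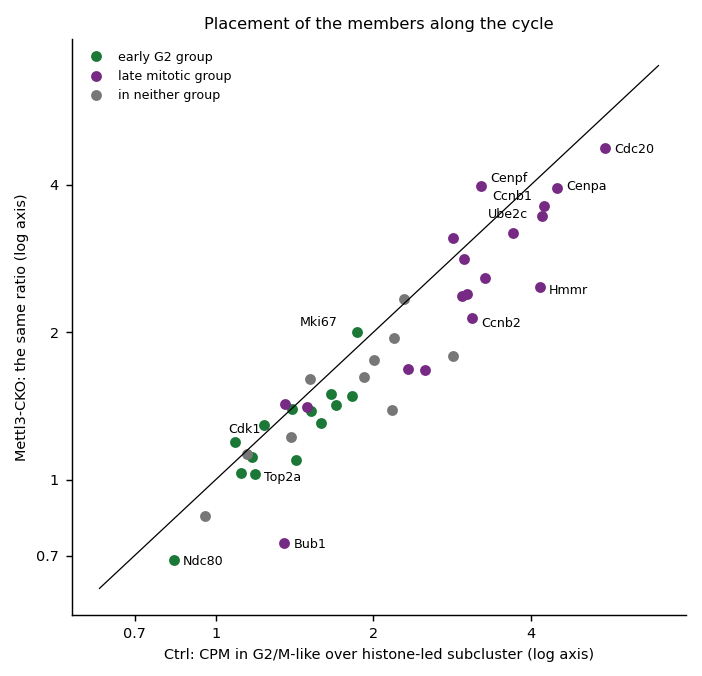
Each point is 1 of the 42 members, placed by its CPM in G2/M-like over that in histone-led cycling cells, in Ctrl (x axis) and in Mettl3-CKO (y axis), both on log axes, with the line of equality. The late genes Cdc20, Cenpa and Ube2c lie at the upper right and the early genes Ndc80, Cdk1 and Top2a at the lower left in both libraries. The groups overlap, and the late genes Bub1, Birc5 and Prc1 lie below the early gene Mki67 in both libraries.

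The phases took close shares of the cycling cells. G2/M-like cells were 17.4% of cycling cells in Ctrl (30 of 172, 12.1 to 24.0) and 17.9% in Mettl3-CKO (49 of 274, 13.5 to 22.9), S-like cells 16.3% and 19.3%, and histone-led cells 25% and 22.6%. The intervals of each pair overlapped. A subcluster led by Rp1 and Olig2, which also met the neurogenic markers, held 10 Ctrl and 29 Mettl3-CKO cells, of which 2 and 4 were predicted doublets. The remaining 35.5% and 29.6% had few UMIs (median 1401 and 1390) and no phase name.

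Within cycling cells the list was slightly lower in Mettl3-CKO, at 14776 CPM against 16234 CPM in Ctrl, a ratio of 0.910 (0.896 to 0.925). All 42 members had at least 50 UMIs there, 136 to 5069 over both libraries. The ratio was below 1 for 31 members and above 1 for 11, with a median log2 ratio of -0.16. Of the 8479 genes with at least 50 UMIs, 3593 were below 1 and 4886 above 1, with a median of 0.06. Members are counted as lower where the level in Mettl3-CKO was at least 20% below that in Ctrl, and as higher where it was at least 25% above it, which are the same distance on a log scale. In cycling cells 6 members were lower, where 9.68% of all genes tested were, and 1 was higher, where 21.9% of all genes tested were. Counting intervals lay wholly below 1 for 15 members, wholly above 1 for 3 and across 1 for 24, a count that was not made over all genes.

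**Figure D2:**
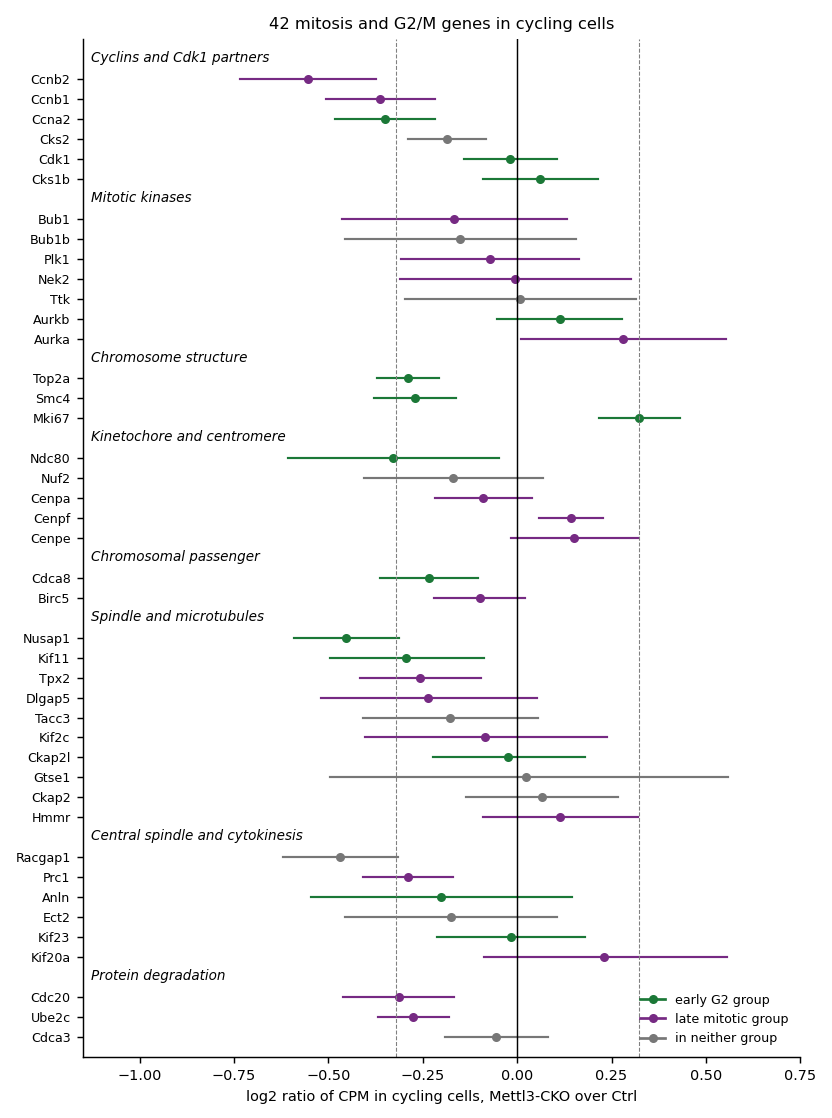
Log2 ratio of CPM in cycling cells, Mettl3-CKO over Ctrl, for the 42 members by role, with 95% counting intervals as bars and dashed lines at 20% lower and 25% higher. Ccnb2, Racgap1 and Nusap1 lie furthest to the left (-0.55, -0.47 and -0.45) and Mki67 furthest to the right (0.32).

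Among cyclins and the partners of Cdk1, all 3 cyclins were at least 20% lower. Ccnb2, a B-type cyclin of mitosis, was at 317 CPM in Ctrl and 216 CPM in Mettl3-CKO cycling cells (ratio 0.681, 0.601 to 0.772), the lowest ratio of the list. Ccnb1, the main partner of Cdk1 in mitosis, was at 464 and 361 CPM (0.778, 0.704 to 0.860), and Ccna2, the cyclin of S phase and G2, at 548 and 430 CPM (0.785, 0.716 to 0.861). Their kinase Cdk1 was at 568 and 561 CPM (0.987, 0.906 to 1.08), above the intervals of all 3 cyclins. In Mettl3-CKO cells with a Y-linked UMI and no Xist, Ccnb1 was as close to Ctrl as Cdk1 was (log2 ratios -0.07 and -0.05). Of the small Cdk-binding proteins, Cks2, the most abundant of the 6, was at 860 and 756 CPM (0.879, 0.819 to 0.944) and Cks1b at 376 and 392 CPM (1.04, 0.940 to 1.16).

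The mitotic kinases were close in sum, at 987 and 1007 CPM, with 3 of 7 above 1 and 4 below. Aurkb, the kinase of the chromosomal passenger complex and the most abundant of them, was at 313 and 338 CPM (1.08, 0.964 to 1.21). Aurka, which acts at spindle poles, had the highest ratio of the kinases at 114 and 138 CPM (1.21, 1.01 to 1.47). Bub1, a kinase of the spindle checkpoint, had the lowest at 107 and 94.9 CPM (0.890, 0.725 to 1.09). The checkpoint kinases Bub1b and Ttk, the mitotic kinase Plk1 and the centrosomal kinase Nek2 had log2 ratios between -0.15 and 0.01, each with an interval across 0.

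Of the genes of chromosome structure, Top2a and Smc4 had ratios below 1, short of 20% lower, and Mki67 was higher. Top2a, the topoisomerase that untangles sister chromatids, was at 1393 and 1140 CPM (0.819, 0.774 to 0.867). Smc4, a condensin subunit, was at 800 and 663 CPM (0.829, 0.769 to 0.894). Mki67, whose protein coats mitotic chromosomes and is the common marker of proliferation, was at 691 and 865 CPM (1.251, 1.16 to 1.35), and was the sole member at least 25% higher, by a small margin. In G2/M-like cells alone Mki67 was at 1129 and 1634 CPM (1.45, 1.30 to 1.61), against 1864 and 1502 CPM for Top2a (0.806, 0.736 to 0.882).

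Kinetochore and centromere genes were divided. Cenpf, a large kinetochore protein and the most abundant here, was at 1176 and 1298 CPM (1.10, 1.04 to 1.17), and Cenpe, a kinetochore motor, had the highest ratio at 298 and 331 CPM (1.11, 0.988 to 1.249). Ndc80 had the lowest, at 126 and 99.9 CPM (0.796, 0.656 to 0.966), with its complex partner Nuf2 at a log2 ratio of -0.17. Cenpa, the histone variant of centromeres, was at 552 and 519 CPM (0.940, 0.861 to 1.03). Both genes of the chromosomal passenger complex in this group were below 1, with Birc5 at 619 and 578 CPM (0.933, 0.859 to 1.02) and Cdca8 at 548 and 466 CPM (0.850, 0.777 to 0.931).

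Of 10 spindle and microtubule genes 7 were below 1. Nusap1, a protein that bundles spindle microtubules and the most abundant of the 10, also had their lowest ratio, at 509 and 372 CPM (0.731, 0.664 to 0.805). Hmmr, a hyaluronan receptor that also sits on spindle microtubules, had their highest, at 202 and 219 CPM (1.08, 0.939 to 1.249). The mitotic motor Kif11 and the spindle assembly factor Tpx2 had log2 ratios of -0.29 and -0.26 with intervals below 0. The intervals of Ckap2, Ckap2l, Tacc3, Gtse1, Dlgap5 and Kif2c all crossed 0.

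The central spindle and cytokinesis genes were at 1606 and 1353 CPM in sum (ratio 0.843), with 5 of 6 below 1 and 1 at least 20% lower. Racgap1, part of the centralspindlin complex that starts the cleavage furrow, was at 434 and 313 CPM (0.722, 0.650 to 0.803). Prc1, which bundles the microtubules between separating chromosomes and is the most abundant of the 6, was at 659 and 540 CPM (0.819, 0.754 to 0.890). Kif20a, a motor of the central spindle, was the exception at 82.1 and 96.4 CPM (1.17, 0.941 to 1.47), and Kif23, the partner of Racgap1 in centralspindlin, was at 231 and 228 CPM (0.989, 0.864 to 1.13). The furrow proteins Anln and Ect2 had log2 ratios of -0.20 and -0.18 with intervals across 0.

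All 3 genes of protein degradation were below 1. Ube2c, the ubiquitin-conjugating enzyme of the anaphase-promoting complex, was at 1065 and 880 CPM (0.826, 0.775 to 0.882), Cdc20 at 440 and 354 CPM (0.804, 0.726 to 0.891), and Cdca3 at 483 and 465 CPM (0.963, 0.877 to 1.06).

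The balance of late over early genes was close in the libraries over the whole set of cycling cells. The late group held 1.04 UMIs per UMI of the early group in Ctrl and 1.06 in Mettl3-CKO, a quotient of 1.01 (0.976 to 1.05). The early group was at 6632 and 6029 CPM (0.909, 0.886 to 0.933) and the late group at 6924 and 6362 CPM (0.919, 0.896 to 0.942). Their median log2 ratios were -0.22 over 14 early and -0.09 over 18 late members. Within subclusters the quotient was 1.17 in S-like (0.905 to 1.51), 1.06 in histone-led (0.990 to 1.13) and 1.003 in G2/M-like cells (0.954 to 1.05), and 1.24 in the Rp1-led cells (1.10 to 1.40).

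Divided by phase, the lower level in Mettl3-CKO was found in G2/M-like cells (0.941, 0.920 to 0.962) and in Rp1-led cells (0.827, 0.783 to 0.874), whereas histone-led cells had a ratio of 1.01 (0.981 to 1.04) and S-like cells of 1.19 (1.08 to 1.32). The cycling cluster of low UMI count had 0.995 (0.926 to 1.07). The mix by UMIs also differed. G2/M-like cells held 461381 of 1473054 cycling UMIs in Ctrl and 713757 of 2571955 in Mettl3-CKO, and Rp1-led cells held 108625 and 443083. The part of this mix in the ratio over all cycling cells (0.910) was not tested. In G2/M-like cells 9 members were lower (16.7% of the 4306 genes tested) and Mki67 alone was higher (19.8% of genes tested). Ccnb2 at 620 and 409 CPM (0.660, 0.559 to 0.780) was again near the lowest, next to Bub1 at 163 and 105 CPM (0.646, 0.463 to 0.902). These values rest on 30 Ctrl and 49 Mettl3-CKO cells. In histone-led cells 41 members had enough UMIs, of which 6 were higher (19.7% of genes tested) and 1 lower (12.9%). In Rp1-led cells 36 members had enough UMIs and in S-like cells 10.

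The level in cycling cells was not the same in all kinds of Mettl3-CKO cell. Against all Ctrl cycling cells (16234 CPM), the list was at 13940 CPM in the 107 cycling cells with Xist and no Y-linked UMI (ratio 0.859, 0.842 to 0.876) and at 16813 CPM in the 67 cycling cells with a Y-linked UMI and no Xist (1.04, 1.01 to 1.06). The Ctrl cycling cells with a Y-linked UMI, chosen in a like way, were at 16503 CPM (16276 to 16734), and their interval overlaps that of the Mettl3-CKO cells with a Y-linked UMI and no Xist (16535 to 17095). The remaining Mettl3-CKO cycling cells, 23 with both and 77 with neither, were at 14197 and 12493 CPM. Against all Ctrl cycling cells, and over the cells with 1 of these marks only, 16 of the 42 members were below 1 in both, 6 above 1 in both, and 20 on opposite sides. This split was not made over all genes. The 7 members counted as higher or lower were on the same side in both kinds. Ccnb2 had log2 ratios of -0.53 and -0.36, Racgap1 of -0.53 and -0.27, Nusap1 of -0.49 and -0.28, Ccna2 of -0.33 and -0.26, and Mki67 of 0.12 and 0.56. The other two were less clear in cells with a Y-linked UMI, with Ccnb1 at -0.47 and -0.07 (-0.25 to 0.12 for the latter) and Ndc80 at -0.46 and -0.21 (-0.59 to 0.16).

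Summed over its members, the late group stood further apart between these kinds of cell than the early group, though single members varied. Cdc20 had log2 ratios of -0.58 in cells with Xist and 0.21 in cells with Y-linked UMIs, Cenpe of -0.24 and 0.68, Cenpa of -0.32 and 0.24, and Plk1 of -0.32 and 0.27. Other late genes differed less, such as Prc1 (-0.33 and -0.22) and Ube2c (-0.30 and -0.16). In the early group Top2a had -0.28 and -0.24, but Mki67 had 0.12 and 0.56. Against all Ctrl cycling cells, the late over early quotient was 0.947 (0.907 to 0.989) in cells with Xist and 1.15 (1.10 to 1.21) in cells with Y-linked UMIs. In the latter the G2/M-like share was 1.80 times that of all Ctrl cycling cells (1.11 to 2.91). Those Ctrl cells were not chosen by a Y-linked UMI, and 35.5% of them had few UMIs and no phase name. Mettl3-CKO cells with a Y-linked UMI and no Xist were deeper, with a median over all classes of 6293 UMIs against 4520.5 in Ctrl. The part of depth in the ratio of 1.80 was not tested. Pup and sex cannot be told apart here, and the part of the G2/M-like share in the members' ratios was not tested.

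**Figure D3:**
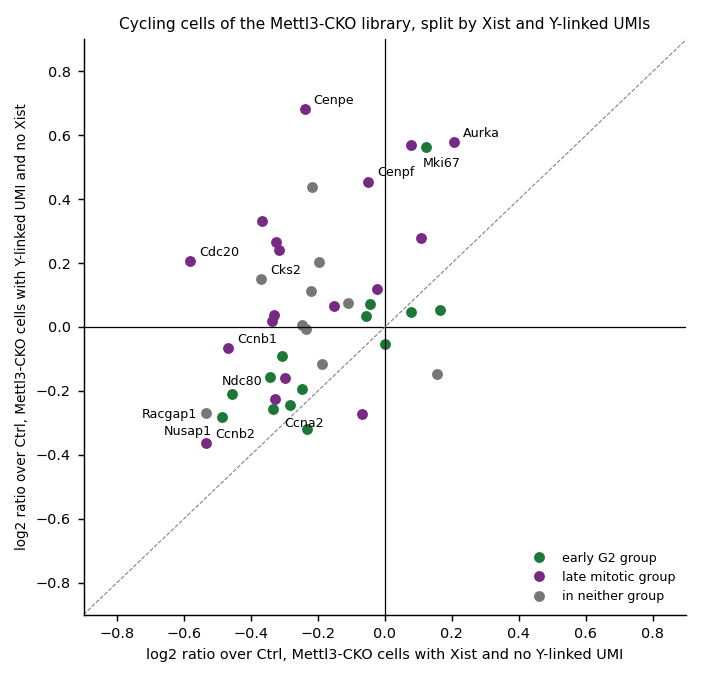
Each point is 1 of the 42 members in cycling cells, with its log2 ratio over Ctrl in Mettl3-CKO cells with Xist and no Y-linked UMI (x axis) and with a Y-linked UMI and no Xist (y axis). Cyclins, Racgap1 and Nusap1 lie below 0 on both axes, whereas late genes such as Cdc20 and Cenpe lie left of 0 and above 0.

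Over all cells of a library, the same genes were higher in Mettl3-CKO. The list was at 1500 CPM in Ctrl and 2307 CPM in Mettl3-CKO (1.54, 1.52 to 1.56). All 42 ratios were above 1, where 7105 of the 13146 genes tested were. Of the members 39 were at least 25% higher, where 14.1% of genes tested were, and 0 at least 20% lower, where 7.93% were. Ratios ran from 1.21 for Ccnb2 (1.08 to 1.35) to 2.25 for Mki67 (2.10 to 2.41). The cycling cells carried 7.03% of all UMIs in Ctrl and 12.9% in Mettl3-CKO, a ratio of 1.83, and they held 76.1% and 82.5% of the list's UMIs. In all other cells the list was at 386 and 463 CPM (1.198, 1.16 to 1.24). The direction over all cells was thus the opposite of that within cycling cells.

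Progenitor-like cells outside the cycling clusters, led by Hes5 and Ccnd1, held intermediate levels, at 2064 and 1862 CPM (0.903, 0.853 to 0.955). A minority of them carried nearly all of it: 36 of 131 Ctrl cells and 52 of 179 Mettl3-CKO cells had UMIs of at least 5 members and held 92.5% and 89.6% of the list's UMIs in the class. In the remaining progenitor-like cells the list was at 214 and 285 CPM (1.34, 1.10 to 1.63). In this class 23 members had enough UMIs. Neurogenic-like cells, led by Neurog2 and Olig2, were at 333 and 359 CPM (1.08, 0.940 to 1.24), and 5 members had enough UMIs.

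In Müller-like cells, the glia that arise last from the progenitors, the list was low in both libraries but was higher in Mettl3-CKO, at 256 CPM in Ctrl (466 cells) and 543 CPM in Mettl3-CKO (310 cells), a ratio of 2.12 (1.92 to 2.34). The late group was at 53.9 and 161 CPM (2.99, 2.44 to 3.67) and the early group at 161 and 259 CPM (1.61, 1.41 to 1.84). Cenpf had 18 UMIs in Ctrl and 67 in Mettl3-CKO (6.61 and 38.3 CPM; 5.80, 3.41 to 10.4), Cks2 39 and 73 UMIs (14.3 and 41.7 CPM; 2.92, 1.95 to 4.42) and Top2a 32 and 42 UMIs (11.7 and 24.0 CPM; 2.05, 1.26 to 3.35). The members with most UMIs in this class had smaller ratios. Cks1b had 168 and 133 UMIs (1.23, 0.975 to 1.56) and Smc4 151 and 130 UMIs (1.34, 1.05 to 1.71). Prc1 had 32 and 31 UMIs (1.51, 0.891 to 2.55). No more than 9 members had at least 50 UMIs in this class, and Cenpf and Cks2 reached that number mainly through Mettl3-CKO, so members were not counted by direction here. Microglia-like cells, which lie outside the progenitor lineage, were at 268 and 426 CPM (1.59, 1.14 to 2.24), of which the former is above the Müller-like level in Ctrl. After thinning to 1000 UMIs a list UMI was in 23.45% of Müller-like cells in Ctrl (19.1 to 28.2) and 31.5% in Mettl3-CKO (25.4 to 38.1), and these intervals overlap those of microglia-like cells given with the postmitotic classes. Whether the Müller-like levels exceed background was not tested.

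Few cells made up much of that difference. UMIs of at least 5 members were found in 13 Müller-like cells of Ctrl (2.79%, 1.49 to 4.72) and in 24 of Mettl3-CKO (7.74%, 5.02 to 11.3), which held 17.5% and 48.9% of the list's UMIs in the class, and 3 of them in each library were predicted doublets. Without these cells the list was at 220 and 307 CPM (1.40, 1.24 to 1.58). The class joins 3 clusters, of which the largest, led by Npy and Col9a1, was at 216 and 470 CPM.

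**Figure D4:**
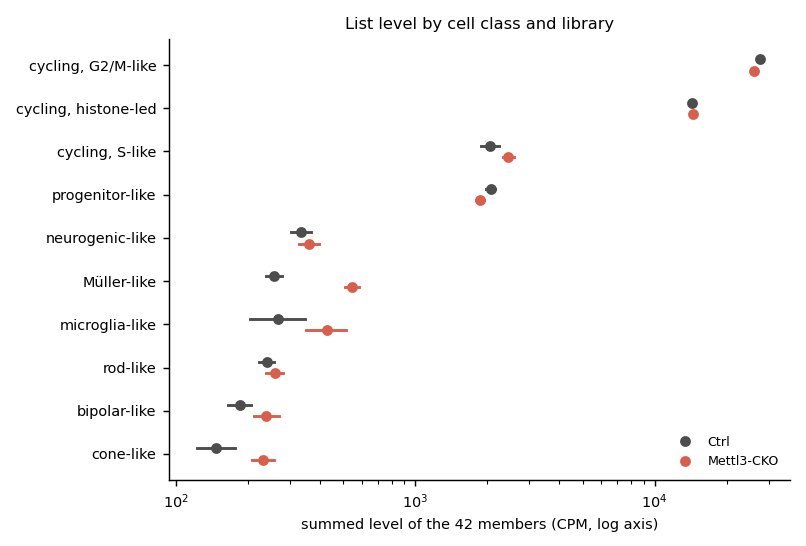
Summed CPM of the 42 members (log axis) in each class or cycling subcluster, for Ctrl and Mettl3-CKO, with 95% Poisson intervals as bars. Levels run from 27689 CPM in G2/M-like to 147 CPM in cone-like cells of Ctrl, and Müller-like cells show the widest gap between libraries (256 and 543 CPM).

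In the postmitotic classes, that is rod-, cone- and bipolar-like cells, the list stood at 209 CPM in Ctrl and 245 CPM in Mettl3-CKO (1.17, 1.08 to 1.27), which is 1.29% and 1.66% of the level in cycling cells. With Mettl3-CKO cells with Xist and no Y-linked UMI alone, the ratio was 1.05 (0.943 to 1.17). With cells with a Y-linked UMI and no Xist alone, it stayed within 1.08 to 1.27. By class the list was at 239 and 258 CPM in rod-like cells (1.08, 0.968 to 1.204), 184 and 239 CPM in bipolar-like cells (1.29, 1.10 to 1.52), and 147 and 231 CPM in cone-like cells (1.57, 1.27 to 1.94). Cone-like cells also differed in depth, with a median of 8298 UMIs in Ctrl and 12840 in Mettl3-CKO. After thinning to 1000 UMIs, 19.1% of postmitotic cells in Ctrl and 20.03% in Mettl3-CKO had a list UMI, and 3.52% (2.53 to 4.76) and 2.32% (1.33 to 3.74) had at least 2. Thinned to 2000 UMIs, the share with at least 2 in Mettl3-CKO over that in Ctrl was 1.11 (0.799 to 1.55), against 0.659 (0.372 to 1.17) at 1000 UMIs. Both intervals include 1 and the direction turns with the depth chosen, so no spread into more cells of these named classes was read. A further 1826 Ctrl and 1435 Mettl3-CKO cells (45.7% and 46.2%) were in unnamed clusters and lie outside this reading. Together these cells were at 344 and 338 CPM (0.982, 0.931 to 1.04). By cluster, those led by Nr2e3, Rtl8a and Pcp2 had ratios of 1.11 (0.972 to 1.275), 1.23 (1.07 to 1.41) and 1.18 (1.035 to 1.34). That led by A830036E02Rik had 1.49 (1.31 to 1.69) and that led by Ttr 0.888 (0.783 to 1.01). In microglia-like cells, which are not of retinal origin, 22.7% (7.82 to 45.4) and 40% (19.1 to 63.9) of the 22 and 20 cells deep enough had a list UMI, with median depths of 1500.5 and 1459.5 UMIs against 4214.5 and 4913 in postmitotic cells. These wide intervals include the postmitotic shares. This class is also no clean background, since 2 of its 34 and 5 of its 30 cells had UMIs of at least 5 members and held 36.8% and 70.8% of the list's UMIs there. Of the 42 members 15 had at least 50 UMIs in the postmitotic classes.

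The make-up of the postmitotic UMIs differed from that of cycling cells. Per member, the level relative to cycling cells ranged from 0.0547% to 9.09% in Ctrl and from 0.185% to 15.8% in Mettl3-CKO, with medians of 0.681% and 0.836%. The same 4 members were highest in both libraries: Bub1b, Cks1b, Smc4 and the spindle protein Tacc3. They held 43.0% and 43.9% of the list's UMIs in postmitotic cells, against 8.92% and 8.78% in cycling cells. Smc4 was at 39.5 and 44.6 CPM there (1.13, 0.934 to 1.36) and Cks1b at 33.9 and 41.7 CPM (1.23, 1.01 to 1.505). Tacc3 was at 7.36 and 7.09 CPM (0.964, 0.599 to 1.54).

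Bub1b, alone of these 4, was several times lower in Müller-like cells than in each of the postmitotic classes. It was at 10.3 and 16.4 CPM in rod-like cells, 8.26 and 13.9 CPM in cone-like cells and 7.26 and 10.4 CPM in bipolar-like cells, but at 1.47 and 2.86 CPM in Müller-like cells (4 and 5 UMIs). Cks1b and Smc4, by contrast, were higher in Müller-like cells (61.6 and 55.4 CPM in Ctrl) than in rod-like cells (38.3 and 47.4 CPM). Over the postmitotic classes Bub1b was at 9.07 and 14.2 CPM (1.56, 1.08 to 2.28). At the other extreme Aurkb had 1 UMI in Ctrl and 5 in Mettl3-CKO in all postmitotic cells, against 461 and 870 in cycling cells.

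**Figure D5:**
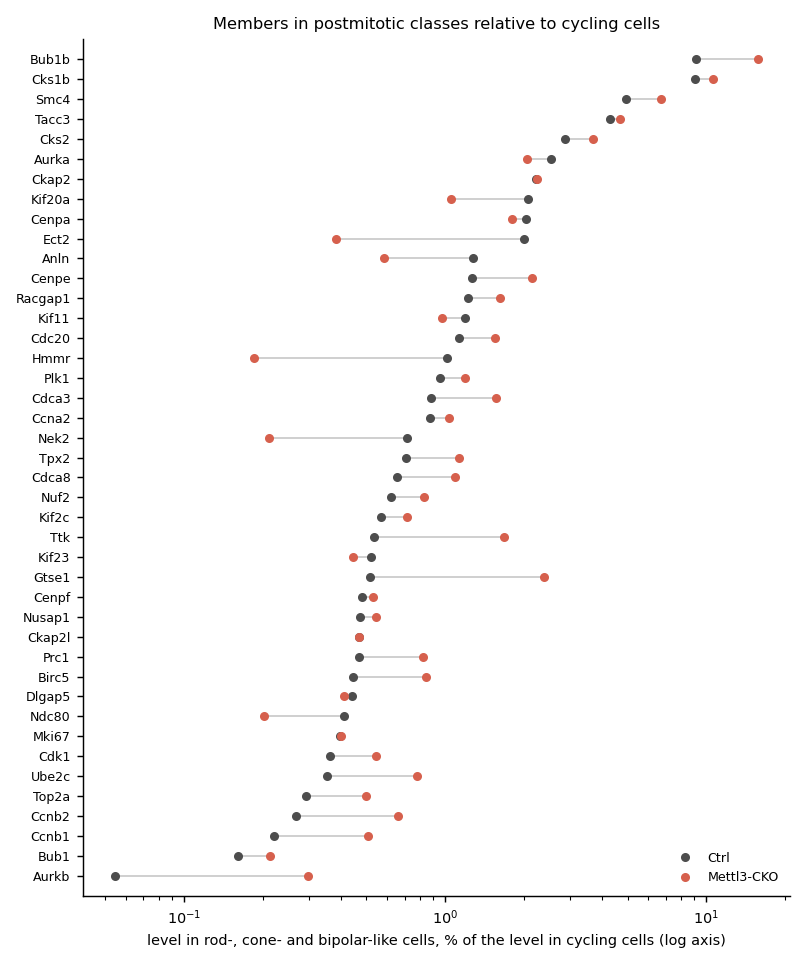
Level of each member in rod-, cone- and bipolar-like cells as a percentage of its level in cycling cells (log axis), in Ctrl and Mettl3-CKO, joined by a line. Bub1b, Cks1b, Smc4 and Tacc3 lead in both libraries, and the members at the bottom rest on few UMIs (Aurkb on 1 and 5).

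Cells with several members were rare but present in these classes. At least 5 members were found in 20 of 1220 postmitotic Ctrl cells (1.64%, 1.004 to 2.52) and in 33 of 728 Mettl3-CKO cells (4.53%, 3.14 to 6.31), which held 13.9% and 22.6% of the list's UMIs. Their median depth was 8158 UMIs in Ctrl and 14646 in Mettl3-CKO, and 14 of the 33 were cone-like. Without them the list was at 186 and 213 CPM (1.14, 1.05 to 1.249). Of these cells 2 in Ctrl and 0 in Mettl3-CKO were predicted doublets. After thinning to 1000 UMIs the most members found in any postmitotic cell were 7 in Ctrl and 3 in Mettl3-CKO. At least 5 list UMIs were then in 0.528% of Ctrl cells (6 of 1136, interval 0.194 to 1.146). In Mettl3-CKO they were in 0 of 689 cells, which allows a share of up to 0.534%. These intervals overlap, so no order was read at equal depth. Of the 6 Ctrl cells, 5 were in a rod-like cluster led by Gngt1, of low depth (median 1613.5 UMIs in Ctrl). It held 264 Ctrl and 87 Mettl3-CKO cells.

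The other genes of the pathway had similar medians in cycling cells, though some of them entered the clustering. Of 58 further G2/M genes 57 had at least 50 UMIs, of which 4 were higher and 7 lower, with a median log2 ratio of -0.14. The lowest were the motor gene Kif14, at 45.5 and 29.2 CPM (log2 ratio -0.64, -1.14 to -0.14), and the histone variant H2afx, at 1219 and 817 CPM (-0.58, -0.67 to -0.49). The highest were Cdca2, which brings a phosphatase to chromatin at the end of mitosis, at 117 and 161 CPM (0.45, 0.20 to 0.72), and Fam83d, at 60.4 and 80.1 CPM (0.41, 0.04 to 0.78). Of 40 S-phase genes 2 were higher and 2 lower, with a median of -0.06. The lower were Uhrf1, which keeps DNA methylation through replication, at 138 and 98.8 CPM (log2 ratio -0.48, -0.75 to -0.21), and the dUTPase gene Dut at 629 and 500.4 CPM (-0.33, -0.45 to -0.21). The higher were the flap nuclease gene Fen1 at 152 and 210.3 CPM (0.47, 0.24 to 0.70) and Dtl at 78.1 and 97.6 CPM (0.32, -0.002 to 0.65).

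In sequence and position the members shared little beyond their promoters. They lie on many chromosomes of GRCm38 (GENCODE M21), for example Mki67 on chromosome 7 (135689784 to 135716361, minus strand), Top2a on chromosome 11 (98992943 to 99024189, minus strand) and Bub1b on chromosome 2 (118598211 to 118641591, plus strand). Transcripts ran from 692 to 11130 bases with a median of 2962, near the 2966 of all 8350 coding genes with enough UMIs. Across the 42 genes the log2 ratio in cycling cells had a Spearman's rho of 0.15 with transcript length, against 0.08 over the 8350 genes. Exons of 10 members, among them Ccna2, Cdc20, Nusap1 and Prc1, overlap exons of a gene on the opposite strand, and as no source used here states that counting was by strand, their UMIs carry that uncertainty.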

How the data were processed

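Single-cell libraries (Chromium Single Cell 3′ V3.1) were measured for 1 Ctrl and 1 Mettl3-CKO sample. Per the labels and the study's methods, the authors filtered reads with fastp, aligned them to mm10 with Cell Ranger 3.1.0 and worked in Seurat 3.1; the annotation release is not given in the sources used here. The deposited values are raw UMI counts per gene and cell, not normalized. The tables were read up to their last complete cell (3994 of 5995 and 3109 of 6992 barcodes); the other cells were not analysed here. The 13 mitochondrial genes were left out, and no cell was filtered; 237 and 86 cells would not pass the study's filter (over 200 genes, under 20% mitochondrial UMIs).

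Both libraries were clustered together on 2000 variable genes, which left out the members, Mettl3 and sex-linked genes. The settings were 10 principal components, 20 neighbours and Leiden resolution 1 (leidenalg 0.10.2). A cluster was named where at least 3 markers of a list were 1.5-fold higher in it and found in 20% of its cells, and left unnamed where its leading genes or low depth went against a name. A tie between the S-phase and G2/M lists was counted as cycling, which took in a cluster of low UMI count; this was set after seeing the clusters. Phases come from subclusters, since 1 cluster held both. Doublets were predicted per library with Scrublet (77 and 17 cells) and kept.

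UMIs were summed per class and library and given as CPM of nuclear genes. With 1 library per group there is no test: levels carry exact Poisson intervals, level ratios conditional binomial intervals, shares Clopper-Pearson intervals, share ratios and late over early quotients log-normal intervals, all at 95%. A gene counts as higher at 25% above or lower at 20% below Ctrl, with at least 50 UMIs over both libraries. The per-gene ratio and its interval were also run on simulated Poisson counts, which hold no variation between cells or libraries. The named genes were, per role, the member with most UMIs and those with the highest and lowest ratio; Mki67, Ccnb1, Ccna2 and Cdca8, which the study names; the 4 members highest in postmitotic relative to cycling cells; and the 2 highest and 2 lowest of the other G2/M and S-phase genes. Others were named after their values were seen. The members and lists were chosen with earlier results of these data known. Unit values come from counts, so depth sets their precision.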

Additional observations from a re-analysis of the deposited data

Results flagged for a closer look

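The list's level had opposite directions in different classes of the same libraries: Mettl3-CKO over Ctrl was 0.910 in cycling cells (0.896 to 0.925) and 2.12 in Müller-like cells (1.92 to 2.34). The difference between the classes was not tested, as each group is 1 library. In Müller-like cells 24 Mettl3-CKO and 13 Ctrl cells with UMIs of at least 5 members held 48.9% and 17.5% of the list's UMIs, and the ratio without them was 1.40 (1.24 to 1.58). In cycling cells the ratio was 1.04 for Mettl3-CKO cells with a Y-linked UMI and no Xist and 0.859 for those with Xist and no Y-linked UMI. The Müller-like ratio was not divided by these marks. Microglia-like cells had a ratio of 1.59 (1.14 to 2.24). No group has 4 or more samples, so no sample could be examined as an outlier.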

How the results depend on the processing

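For 10 main results, 67 of 101 values under alternative settings lay within the reported value's interval, within 1.5 times a reported count or within 0.1 of a reported median. Such intervals can be wide: the ratio of postmitotic cells with at least 2 list UMIs, 0.659 as reported, was 0.386 for Mettl3-CKO cells with a Y-linked UMI and no Xist and 1.11, on the other side of 1, when thinned to 2000 UMIs. Further, 19 of 42 members kept the side of 1 in cycling cells under all 11 settings that give them a value, 13 below and 6 above. Of the 6 members at least 20% lower 5 did so, and Ndc80 turned to a log2 ratio of 0.0897 with a mean over cells. With Mettl3-CKO cells with Xist and no Y-linked UMI alone, the cycling share ratio was 1.62, the list ratio over all cells 1.43, in cycling cells 0.859 with 0 members higher and 14 lower, in postmitotic classes 1.05, and the late over early quotient 0.947. With cells with a Y-linked UMI and no Xist alone, the list ratio over all cells was 2.02, in cycling cells 1.04 with 7 higher, 1 lower and a median log2 ratio of 0.0357, the late over early quotient 1.15, and the ratio of the G2/M-like share 1.80. Both kinds were set against all Ctrl cells, which were not chosen by these marks. With predicted doublets left out the list ratio over all cells was 1.49. In cycling cells the list ratio was 0.884 with 0 members higher at Leiden resolution 2, 0.892 with 0 higher with the members left among the variable genes, and 0.983 with 2 lower and a median of -0.0574 with cells taken by their own marker UMIs (a cut of 50 UMIs per 10000, with 157 and 135 cells between 40 and 60). A mean of per-cell CPM gave 1.74 over all cells, 0.978 in cycling cells, 3 higher and a median of 0.00105. A median-of-ratios size factor gave 1.52 over all cells, 0.876 in cycling cells, 0 higher and 12 lower. Chosen after seeing the data, leaving out the low-UMI cycling cluster gave 0 higher and 10 lower, and leaving out the Rp1-led subcluster gave a list ratio of 0.933 with 2 higher. Shares of all genes counted as higher or lower were computed for the reported settings only. The counts of members in this paragraph therefore have no background beside them. The cause of these shifts was not tested. No paired analysis was possible because each group is 1 library. Depth limits single members outside cycling cells: in postmitotic classes 15 of 42 had at least 50 UMIs.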

Other observations

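A small unnamed cluster led by Ttr, Pmel, Col8a1 and Dct, of which Pmel and Dct are known from pigment cells, held 46 Ctrl and 16 Mettl3-CKO cells with the list at 1974 and 1753 CPM, near the level of the progenitor-like cells (2064 and 1862 CPM). After thinning to 1000 UMIs, at least 2 list UMIs were found in 18.9% of Ctrl (7 of 37, 7.96 to 35.2) and in 33.3% of Mettl3-CKO cells of this cluster (5 of 15, 11.8 to 61.6), against 25.9% and 22.3% of progenitor-like and 3.52% and 2.32% of postmitotic cells. Another unnamed cluster, led by Prdm13, Nhlh2, Ebf1 and Ptf1a, was at 176 and 267 CPM.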
